A study of Mus musculus with 10 samples.

Results

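The baseline transcriptome of the mouse thoracic aorta was described from the 3 control libraries of a series of 10 samples. The members were chosen by their labels alone, as the aortas titled Control, replicates 1 to 3, and the remaining samples were not compared with them. The study asked what the transcription factor PRDM16 does in vascular smooth muscle cells (VSMCs), using *Prdm16*SMKO mice in which floxed *Prdm16* is deleted by a tamoxifen-inducible Cre driven by the *Myh11* promoter. The control aortas carried the genotype *Prdm16*f/f, which means that both alleles are flanked by loxP sites and no Cre is named in the label, on a C57BL/6J background, and the study's methods used both floxed mice and mice with the Cre alone as controls. Age, sex, time of day and tamoxifen treatment of these 3 animals are not stated in the labels. Each library was made from poly(A)-selected RNA of a thoracic aorta, with no statement on how far the surrounding fat was removed, and expression was given as transcripts per 1000000 (TPM), a unit in which each value is a gene's share of the library after correction for transcript length, scaled to the same total in every library. The read depth behind each library is unknown here beyond an average that the labels state for all libraries, and the 3 values of a gene are given in the order aorta 1, aorta 2, aorta 3. With 1 group and no contrast, there was nothing to test, and all values are descriptions of these 3 libraries.

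A large artery has an inner lining of endothelium, a media in which layers of VSMCs alternate with elastic sheets, and an adventitia of fibroblasts and collagen. In the mouse the thoracic aorta lies in a sleeve of perivascular adipose tissue that resembles brown fat and expresses *Ucp1*, the uncoupling protein of thermogenic mitochondria. VSMCs in a healthy wall carry a contractile program built on smooth muscle actin and myosin and also secrete most of the elastin and much of the collagen around them. In bulk tissue, fewer cells of a type and less RNA per cell cannot be told apart, so the shares below are shares of transcripts and not of cells.

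The defining markers of the labelled tissue were present. *Acta2*, smooth muscle α-actin, had TPM of 12433, 11249.9 and 11024. *Myh11*, the smooth muscle myosin heavy chain, had TPM of 3379, 2679 and 2612, and *Eln*, elastin, had TPM of 4018, 3156 and 2850.4. These 3 genes ranked 1st, 11th and 6th by mean among the 11963 nuclear protein-coding genes whose mean TPM was 1 or more. *Pecam1*, an adhesion molecule of endothelium, had TPM of 53.1, 40.4 and 59.3, and *Ucp1* had TPM of 15.3, 117 and 59.4. *Acta2*, *Myh11* and *Eln* were highest in aorta 1, *Pecam1* was lowest in aorta 2, and *Ucp1* was lowest in aorta 1 and highest in aorta 2 by a wide margin.

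Short sequences show why several of the highest values need care. A block of chromosome 1 carries a nuclear copy of mitochondrial DNA that is annotated as separate pseudogenes, and reads from such a copy and from the mitochondrial gene cannot be told apart. Of 892 genes with mean TPM of 100 or more whose transcripts were compared with the mitochondrial genome, 7 nuclear pseudogenes matched it over at least 90% of their length. They lay side by side between positions 24611535 and 24616197 of chromosome 1 (GRCm38, minus strand), and 5 of them were 100% identical to the mitochondrial sequence over their whole length, *Gm28438* was 99.71% identical, and *Gm29216* was 99.793% identical over 483 of 492 bases. For 4 of the 7 pairs, 60 bases that read the same in the pseudogene and in the mitochondrial gene are shown 5′ to 3′, as examples of sequence that cannot place a read.
Gm10925 and mt-Atp6: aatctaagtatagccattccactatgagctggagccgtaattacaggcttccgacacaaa
Gm28661 and mt-Co2: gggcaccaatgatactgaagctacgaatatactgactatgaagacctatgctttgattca
Gm28437 and mt-Co3: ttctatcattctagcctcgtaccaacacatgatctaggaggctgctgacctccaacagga
Gm28439 and mt-Nd4: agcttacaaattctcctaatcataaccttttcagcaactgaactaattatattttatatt
In GRCm38 these lie at chr1:24614292-24614351, chr1:24615206-24615265, chr1:24613612-24613671 and chr1:24612051-24612110, all on the minus strand, and at positions 8227 to 8286, 7313 to 7372, 8907 to 8966 and 10467 to 10526 of the mitochondrial genome.

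The split of TPM between the members of a pair varied. *Gm10925* had TPM of 11905, 15851 and 15183, while *mt-Atp6*, the ATP synthase subunit with the same sequence, had TPM of 3559.9, 6805 and 6110.4. Likewise *Gm28661* had TPM of 5913, 6805 and 8089 beside 3159, 6006 and 4751 for *mt-Co2*, a subunit of cytochrome c oxidase. In both pairs the pseudogene was listed above the mitochondrial gene in every aorta, so only the sum of a pair is interpretable, and it came to 15465, 22657 and 21293 TPM for *mt-Atp6* with *Gm10925*. For *mt-Co1* with *Gm29216* the split went the other way, at 17131.5, 26303 and 23432 TPM for the mitochondrial gene and 261, 332 and 339 TPM for the pseudogene.

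The RNA of the aorta was concentrated in few genes. The most abundant entry, *CT010467.1* (ENSMUSG00000106106), an 18S ribosomal RNA sequence at chr17:39846353-39848827 on the minus strand, had TPM of 219736, 202339 and 234489, or 21.97%, 20.2% and 23.4% of the total. The long non-coding RNA *AY036118* lies inside the same locus on the same strand, at chr17:39847113-39848035, and had TPM of 15938, 14877 and 21077. Ribosomal RNA has no poly(A) tail, and its share after poly(A) selection is not its share in the tissue. Together the 10 most abundant genes held 37.0%, 40.4% and 43.0% of TPM and the 100 most abundant held 55.3%, 59.8% and 61.6%. As few as 49, 27 and 21 genes made up 50% of an aorta's TPM, with aorta 1 the most even of the 3.

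Without ribosomal RNA and mitochondrial genes the aortas were far more alike. The nuclear protein-coding genes held 56.1%, 50.2% and 48.4% of TPM. Among them the top 10 held 8.83%, 8.72% and 8.94% and the top 100 held 26.9%, 26.6% and 27.2%, and 527, 534 and 502 genes reached 50%. The 3 aortas thus had similar abundance curves for nuclear protein-coding genes and differed in how much of the library the other classes took. The numbers of genes with a TPM of at least 1 were 14007, 13712 and 13331, of which 12027, 11965 and 11812 were nuclear and protein-coding.

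**Figure D1:**
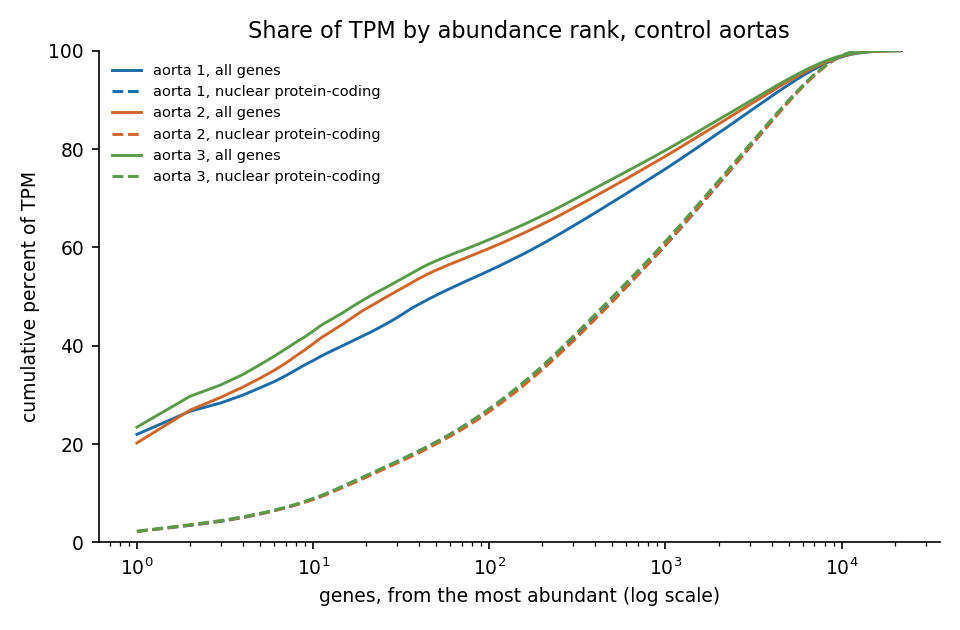
Cumulative percent of TPM (y axis) over genes ordered from the most abundant (x axis, log scale), with a colour for each control aorta, solid for all genes and dashed for nuclear protein-coding genes. The solid curves reach 55.3%, 59.8% and 61.6% at 100 genes in aortas 1, 2 and 3, while the dashed curves lie on top of each other at 26.9%, 26.6% and 27.2%.

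The most abundant nuclear protein-coding genes came from the contractile apparatus and the matrix. *Acta2* was followed by *Myl6*, the essential light chain of non-sarcomeric myosin, at 6956, 6497 and 6465 TPM, and *Tagln*, the actin-binding protein SM22α, at 4643, 4162 and 4055 TPM. *Myl9*, the regulatory myosin light chain of smooth muscle, had TPM of 4320.1, 3771 and 3733. The secreted *Igfbp7* came next at 3789, 3413 and 3381 TPM, ahead of *Eln*. The first 25 also held the actin monomer buffer *Tmsb4x*, ferritin heavy chain *Fth1*, the actin cross-linker *Flna*, the calcification inhibitor *Mgp*, *Vim*, *Eef1a1*, *Tpm2*, the proteoglycan *Bgn*, *Cald1*, *Dstn*, *Actb*, *Lars2*, *Cnn1*, *Tpm1*, *Csrp2*, *Rps24*, *Sparc* and *Csrp1*. Of these, *Lars2*, a mitochondrial leucyl-tRNA synthetase, had TPM of 1893, 1964 and 2034 and was the only member of the 25 that was lowest in aorta 1. The comparison with the mitochondrial genome kept only matches over at least 90% of a transcript. Shorter stretches shared by *Lars2* with other abundant RNA were not looked for, so its value needs care. Abundant genes had short transcripts, with a median of 1815 bases over the top 10 nuclear protein-coding genes, 2726 bases over ranks 101 to 1000 and 3525 bases beyond rank 5000.

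Genes were then sorted into 23 exclusive classes, of which the smooth muscle contractile and cytoskeletal class of 60 genes was the largest of the named nuclear protein-coding classes. It held 6.42%, 5.56% and 5.46% of all TPM and 11.4%, 11.1% and 11.3% of nuclear protein-coding TPM. Cytosolic ribosomal proteins, the protein part of the ribosome, held 4.38%, 4.22% and 4.14% of all TPM. The 3 matrix classes together held 3.29%, 2.74% and 2.77%, so that contractile TPM was 1.95, 2.03 and 1.97 times matrix TPM. This ratio was nearly constant (1.98 ± 0.0414; SD, n = 3), although each part of it was higher in aorta 1 on the scale of all TPM. Mitochondrially encoded genes held 14.7%, 22.2% and 20.2%, or 17.4%, 25.3% and 23.6% with the copies on chromosome 1. Without the copies, *mt-Atp8* alone held 30.9% of their summed TPM, at 46967, 66619 and 62611 TPM over a transcript of 204 bases.

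**Figure D2:**
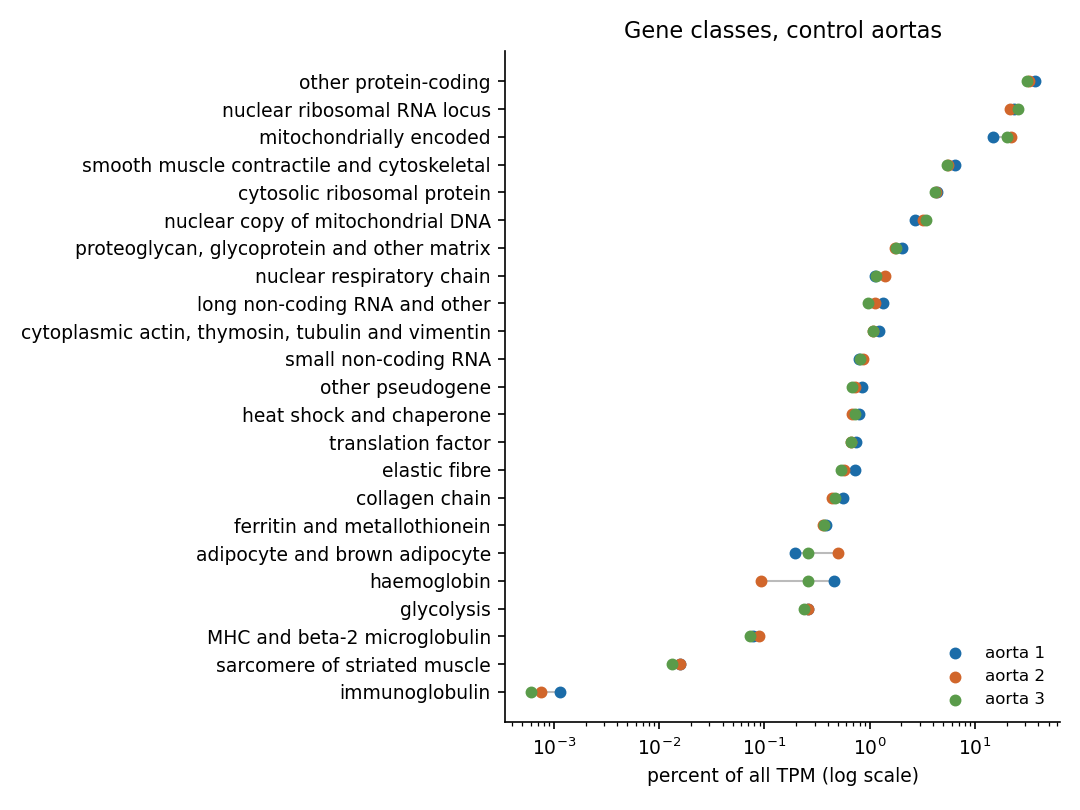
Percent of all TPM (x axis, log scale) in each of the 23 gene classes (y axis), with a point for each control aorta and a grey line from the lowest to the highest. Points nearly coincide for the smooth muscle contractile class (6.42%, 5.56% and 5.46%) and spread widely for haemoglobin (0.460%, 0.0938% and 0.258%) and adipocyte genes (0.195%, 0.504% and 0.261%).

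Within the contractile families 1 or 2 members held most of the TPM, and the same members led in every aorta. *Acta2* held 78.9% of the summed TPM of 6 actins, and the others were, as mean ± SD of 3 aortas, cytoplasmic *Actb* (1980 ± 239 TPM), cytoplasmic *Actg1* (905 ± 134), enteric *Actg2* (204 ± 14.4), cardiac *Actc1* (4.02 ± 1.87) and skeletal *Acta1* (0.330 ± 0.305), with no overlap in TPM between any member and the next. *Myh11* held 88.0% of the 14 myosin heavy chains. The nonmuscle chains *Myh10* and *Myh9* followed at 270 ± 51.8 and 117 ± 15.7 TPM. The ratio of *Myh11* to *Myh9* was 25.1, 24.6 and 24.6, and *Acta2* to *Myl9* stood at 2.88, 2.98 and 2.95.
Tropomyosins, which lie along the actin filament, were led by *Tpm2* (2731 ± 288 TPM) and *Tpm1* (1758 ± 163), with *Tpm4* and *Tpm3* at 137 ± 7.58 and 109.6 ± 23.0 and overlapping. The kinase *Mylk*, which phosphorylates the regulatory light chain to start contraction, had 523 ± 49.3 TPM. The less familiar *Mylk4* was the second kinase at 287 ± 40.5 TPM, while *Mylk3*, the cardiac kinase, had 0.177 ± 0.0681.

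The promoters of this class were looked at for the CArG box, the site of serum response factor, defined here as CC, then 6 bases that are A or T, then GG, read on both strands of the 250 bases before and 50 after the RefSeq start (GRCm38.p6). The box was present for 8 of 49 class members averaging 1 TPM or more and found in the promoter table (16.3%), and for 1.81% of all 27025 genes of the table. It was present for 1.58% of the 9447 nuclear protein-coding genes found that averaged 1 TPM or more. Of the 100 most abundant nuclear protein-coding genes, 75 were found and 4 had the box (5.33%). *Myh11*, *Tagln*, *Eln* and *Pecam1* were not in the table, and *Acta2* and *Cnn1* were in it without a box in this window. A match is a description of these letters and not evidence of binding. Examples from abundant members are shown with 20 bases on either side and the box in capitals.
Myl6: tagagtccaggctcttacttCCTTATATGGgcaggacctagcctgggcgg
Myl9: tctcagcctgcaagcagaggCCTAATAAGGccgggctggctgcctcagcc
Fhl1: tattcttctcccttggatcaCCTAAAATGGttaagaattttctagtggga
Filip1l: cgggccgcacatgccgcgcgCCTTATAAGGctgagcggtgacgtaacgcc
Vcl: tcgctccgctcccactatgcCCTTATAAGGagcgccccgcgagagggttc
Cnn2: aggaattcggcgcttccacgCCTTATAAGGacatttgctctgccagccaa
They lie at chr10:128493030-128493079 (minus strand), chr2:156775283-156775332, chrX:56779561-56779610, chr16:57549160-57549209, chr14:20929151-20929200 and chr10:79988524-79988573 (plus strand), and their boxes begin 50, 161, 102, 62, 227 and 56 bases before the start. The mean TPM of these genes ran from 6639 for *Myl6* to 170.4 for *Cnn2*, a calponin, by way of 1032 for *Fhl1*, a LIM-domain protein, 327 for *Filip1l* and 266 for *Vcl*, the adhesion protein vinculin. The same box stood in the window of *Rergl*, a smooth muscle marker listed at 0, 0.13 and 0 TPM, so a box did not go with high abundance in each case.

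Collagen chains held less TPM than either of the other matrix classes in every aorta, although they held more than elastin alone. Elastic fibre genes held 0.720%, 0.573% and 0.539% of all TPM and the 44 collagen chains held 0.556%, 0.437% and 0.470%, with *Eln* alone, at 4018, 3156 and 2850.4 TPM, the bulk of the elastic fibre class. Next in it were *Mfap4* (546, 488 and 463 TPM), a microfibril-associated glycoprotein, and *Ltbp4* (481, 367 and 393), which tethers latent TGF-β. *Fbln5*, needed for elastic fibre assembly, had TPM of 364, 287 and 275. *Eln* had an SD of 0.25 over the 3 aortas on log2(TPM + 0.1).
Of the collagen chains, 28 had a mean TPM of at least 1. *Col18a1* of basement membranes (749 ± 62.9 TPM), *Col3a1* (727 ± 134) and *Col1a2* (725 ± 118) could not be ranked among themselves, and the basement membrane chain *Col4a1* (489 ± 30.9) overlapped *Col1a1* (428 ± 80.9). The fibrillar chains *Col1a2* and *Col1a1*, which are joined in type I collagen with *Col1a1* as the more frequent chain, had a TPM ratio of 1.66, 1.75 and 1.69 in favour of *Col1a2*. Proteoglycans, glycoproteins and other matrix genes held 2.02%, 1.73% and 1.76% of TPM, led by *Igfbp7*, *Mgp* (3186, 2805 and 2808 TPM), *Bgn* (2773, 2279.8 and 2361) and *Sparc* (1698, 1461 and 1455).

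Cell types were followed with 25 lists of marker genes. The 20 smooth muscle markers summed to 34282, 29896 and 29282 TPM, of which 18 had a mean of at least 1, and *Casq2* (0.24, 1.01 and 0.80 TPM) and *Rergl* did not. The 15 elastic fibre genes summed to 7074, 5614 and 5279 TPM and the 20 fibroblast genes to 4598, 3619 and 3765, with *Fbln1* and *Mfap5* counted in both. The fibroblast list includes *Col3a1*, which alone held 18.2% of it, *Col1a2* and *Col1a1*. VSMCs also secrete collagen, so this sum is not of fibroblasts alone. Pericyte markers summed to 782, 689 and 629 TPM, mostly from *Rgs5*, *Cspg4* and *Abcc9*, which arterial smooth muscle also expresses. The endothelial list was far smaller, at 293, 375 and 355 TPM over 22 genes that all passed a mean TPM of 1, led by *Pecam1*, the transcription factor *Erg* (49.9, 44.3 and 44.2) and *Egfl7* (27.1, 48.2 and 36.7). Smooth muscle markers therefore held 3.43%, 2.99% and 2.93% of all TPM and endothelial markers 0.0293%, 0.0375% and 0.0355%, which compares lists of different length and is not a ratio of cells.

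Leukocyte markers were at low levels. The macrophage list summed to 178, 128 and 140 TPM, with the efferocytosis receptor *Mertk* (35.4, 30.03 and 31.8), lysozyme *Lyz2* (35.6, 26.3 and 28.5) and complement *C1qa* (24.1, 19.0 and 21.2) at its head. None of the 12 T and NK cell markers, 9 neutrophil markers, 5 thymocyte markers and 7 lung epithelium markers reached a mean TPM of 1, and *Gzma*, *Ncr1*, *Mpo*, *Sftpb* and *Rag2* were listed at 0 in all 3 aortas. MHC class I, which all nucleated cells express, was led by *B2m* (376, 397 and 356), *H2-D1* (140.4, 159.9 and 141) and *H2-K1* (125, 171 and 112), each highest in aorta 2. Of 12 proliferation genes 2 passed a mean of 1, and *Mki67* had TPM of 0.74, 0.72 and 0.66. Neuronal markers summed to 93.8, 117 and 119 TPM, but *Uchl1* alone had 91.5, 112 and 117, and *Th* and *Dbh*, enzymes of noradrenaline synthesis, were at 0, 0.09 and 0 TPM and at 0 in all 3.
Chondrocyte markers summed to 125, 76.7 and 116 TPM through *Cytl1* (73.8, 32.4 and 75.5), *Comp* (27.9, 25.3 and 21.4) and *Acan* (10.2, 8.16 and 8.72), while the cartilage collagen *Col2a1* stayed below 1. Of the cardiac markers, *Tnnt2* (33.8, 21.7 and 16.8 TPM), *Ryr2* (25.7, 19.7 and 18.1) and *Tnni3* (8.52, 6.31 and 5.35) were measured, and the ventricular light chain *Myl3* was listed at 0. Skeletal muscle markers summed to 16.9, 21.2 and 18.7 TPM, with the fast myosin *Myh4* and *Pvalb* listed at 0.

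**Figure D3:**
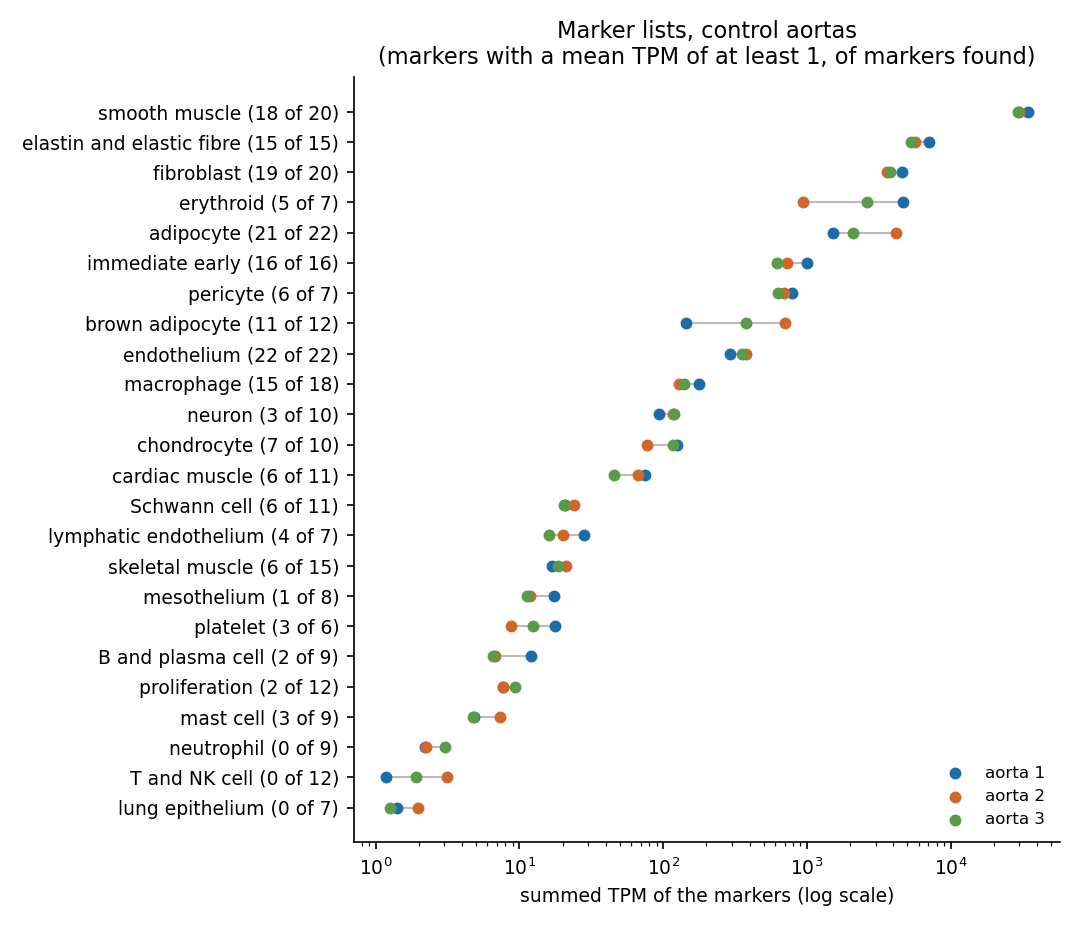
Summed TPM of each marker list (x axis, log scale) for 24 of the 25 lists (y axis), with a point for each control aorta, a grey line from lowest to highest, and in parentheses the markers with mean TPM of 1 or more of those found. Smooth muscle leads at 34282, 29896 and 29282, and the erythroid, adipocyte and brown adipocyte lists have the widest gaps. The thymocyte list, listed at 0 in aorta 1, is left off the log axis.

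The aortas were compared gene by gene on log2(TPM + 0.1), where the added 0.1 keeps zeros finite. TPM must sum to a constant, so a larger share for some genes goes with a smaller share for others. The median over the 13705 genes averaging 1 TPM or more stood at 0.15, −0.04 and −0.11 relative to each gene's mean. Most genes were highest in aorta 1 (9434 of 13705), and what set this shift was not tested. Changes of the marker lists are therefore given relative to the median gene. The median SD of a gene over the 3 aortas was 0.21, and it was 0.19 over nuclear protein-coding genes. Over all genes it fell from 0.39 for a mean TPM of 1 to 3 to 0.13 for 100 to 1000. For the 64 genes of 1000 TPM or more it was 0.18, and for the 39 nuclear protein-coding genes among them 0.11. The excess of aorta 1 went with transcript length, with a median of 0.10 in the shortest of 4 equal bins of nuclear protein-coding genes and 0.19 in the longest, while aorta 2 went from −0.01 to −0.07. It hardly went with GC content, at 0.14 to 0.15 over 4 such bins. Across genes, which are not independent replicates and share the library's depth, Pearson's r between 2 aortas ran from 0.974 to 0.979 over 11963 nuclear protein-coding genes and from 0.937 to 0.940 over all 13705.

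Which class was steadiest depended on the scale. On TPM as deposited, ribosomal protein genes had a median SD of 0.0604 over 82 genes and smooth muscle contractile genes 0.15 over 58. After rescaling by the median ratio, which divides the aortas by 1.12, 0.976 and 0.923 so that their median genes are level, the order reversed, at 0.10 and 0.0729. Their median transcript lengths were 1076.5 and 3124.5 bases, and the part of length in this difference was not tested. The steadiest class after rescaling was neither of them but the 12 translation factor genes, with a median SD of 0.0647. The gene with the smallest SD among 1954 averaging 50 TPM or more was *Cltb*, a clathrin light chain, at 90.57, 90.55 and 90.61 TPM. *Cst3*, the protease inhibitor cystatin C, had TPM of 1113.4, 1118.8 and 1112.7. *Dpt*, a dermal matrix protein, had TPM of 98.7, 99.6 and 98.2, and *Igfbp4*, *Rpl31*, *Rplp1*, *S100a4*, *Ppib* and *Sub1* were also among the 15 steadiest. These SDs are on TPM as deposited, and since the median gene was higher in aorta 1 on that scale, genes with level TPM were low in aorta 1 relative to it.

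**Figure D4:**
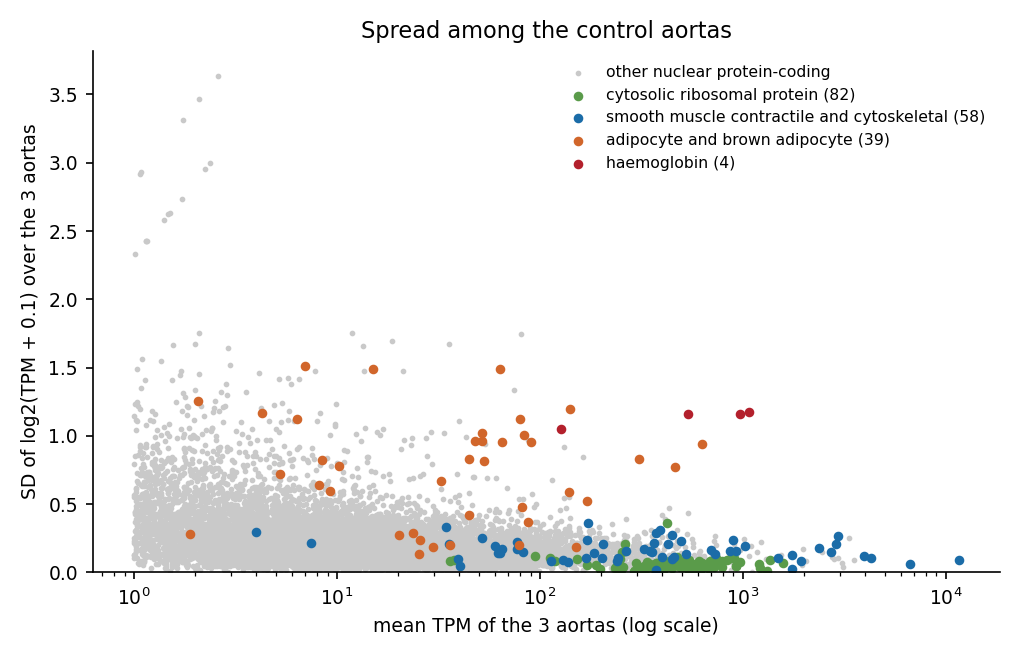
SD of log2(TPM + 0.1) over the 3 control aortas (y axis) against mean TPM (x axis, log scale) for nuclear protein-coding genes averaging 1 TPM or more, a point per gene. Ribosomal protein genes lie along the bottom (median SD 0.0604) and smooth muscle genes just above (0.15), an order that reverses after rescaling (0.10 and 0.0729). The medians of adipocyte genes (0.78) and haemoglobin genes (1.16) stand clear of genes of like abundance. Single adipocyte genes go down to an SD of 0.13.

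The 20 genes with the largest SD among those averaging 10 TPM or more were all non-coding RNAs or pseudogenes that were listed at 0 in at least 1 aorta, with a median length of 162.5 bases. *Gm25117* (0, 178 and 0 TPM) and *Gm13392* (169.7, 0 and 0) headed them. Among nuclear protein-coding genes, a restriction made after these values were seen, the largest SDs belonged to *Gm45799*, *Cox8b*, *Gm15446*, *Cox7a1*, *Adtrp*, *Cpt1b*, *Ucp1* and *Clstn3*. In all, 135 of 11963 nuclear protein-coding genes (1.13%) had an SD above 1, against 314 of 1729 genes that are not protein-coding.

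Most adipocyte genes differed between the aortas in the same order. *Fabp4*, the adipocyte fatty acid-binding protein, had TPM of 294, 1078 and 507. *Adipoq*, adiponectin, had TPM of 25.8, 93.9 and 36.7, and *Cidea*, a lipid droplet protein of brown fat, had TPM of 48.0, 251 and 121. Aorta 2 was highest and aorta 1 lowest for each of them.
The brown fat isoforms of cytochrome c oxidase followed, with *Cox8b* at 14.2, 142 and 86.4 TPM and *Cox7a1* at 7.07, 71.0 and 29.7. Relative to the median gene, the 11 brown adipocyte markers with a mean of at least 1 stood at −1.39, 1.31 and 0.27 (median, log2 scale), and the 21 adipocyte markers at −0.81, 0.93 and −0.04. The brown adipocyte list summed to 143, 703 and 375 TPM. Smooth muscle markers, by contrast, stood at 0.02, −0.04 and 0.02. Of the 11 brown adipocyte markers 9 were highest in aorta 2 and lowest in aorta 1, *Dio2*, the deiodinase, with a narrower spread at 16.1, 22.8 and 21.9 TPM. The others were *Acot11*, which had TPM of 28.3, 24.3 and 18.9, and *Ppargc1a*, a coactivator of mitochondrial genes, which had 1.71, 1.62 and 2.36.

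This order was the commonest among genes with a wide spread. Of 136 nuclear protein-coding genes averaging 10 TPM or more and with an SD above 0.5, 71 (52.2%) were highest in aorta 2 and lowest in aorta 1, against 5.56% of all 7139 with that mean. Both shares are on TPM as deposited, where most genes were highest in aorta 1. After median-ratio rescaling 31.6% of 11963 nuclear protein-coding genes were highest in aorta 2, and the 136 were not recounted on that scale. The 71 included 21 of the 26 adipocyte and brown adipocyte markers averaging 10 TPM or more. *Dgat2* and *Pck1* were among these 21. The rest of the 71 held *G0s2*, a gene of lipolysis, and *Gpihbp1*, which carries lipoprotein lipase across capillary endothelium (5.62, 24.7 and 11.1 TPM). Also in the rest were the endothelial genes *Cdh5* (10.6, 27.1 and 16.9), *Cldn5* (12.8, 25.5 and 21.3) and *Flt1* (7.68, 15.95 and 10.7).
Relative to the median gene, the 22 endothelial markers stood at −0.39, 0.14 and 0.24. After median-ratio rescaling 0 of them were highest in aorta 1, against 34.6% of all genes, while 11 were highest in aorta 2 and 11 in aorta 3. The list was thus low in aorta 1 but did not share 1 order between aortas 2 and 3. *Cdh5*, *Cldn5*, *Egfl7* and *Robo4* (1.13, 4.55 and 1.91 TPM) were highest in aorta 2, whereas *Pecam1* was lowest there and *Vwf*, which large vessels express strongly, had TPM of 15.9, 8.78 and 19.1. The adipocyte markers moved in the order of *Cdh5*, *Cldn5* and *Flt1* beside them, and their part in the endothelial values was not tested.

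Genes of the respiratory chain went with the adipocyte genes. The 83 nuclear-encoded subunits with mean TPM of 1 or more held 2.00%, 2.78% and 2.38% of nuclear protein-coding TPM. After rescaling by the median ratio, 73 of them (88.0%) were highest in aorta 2, against 31.6% of all nuclear protein-coding genes. They included ubiquitous subunits such as *Cox6a1* (500.4, 674 and 509 TPM) and *Cox4i1* (375, 466 and 385) as well as the brown fat isoforms. The median transcript length of the 83 was 1005 bases, and the part of length in their order was not tested. The 8 mitochondrially encoded genes not paired with 1 of the 7 pseudogenes were also highest in aorta 2, on TPM and after rescaling. Unpaired does not mean free of shared sequence. *mt-Atp8* is among the 8 and ends at mitochondrial position 7969, while the match of *Gm10925* begins at 7927. The 7 pairs of gene and copy, summed, were less uniform, with 6 highest in aorta 2 on TPM but 3 in aorta 2 and 4 in aorta 3 after rescaling. *Atp5b*, the catalytic subunit of ATP synthase, had TPM of 1308, 1394 and 1217. Adipocyte markers moved in the same order beside these values, and their part in them was not tested.

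**Figure D5:**
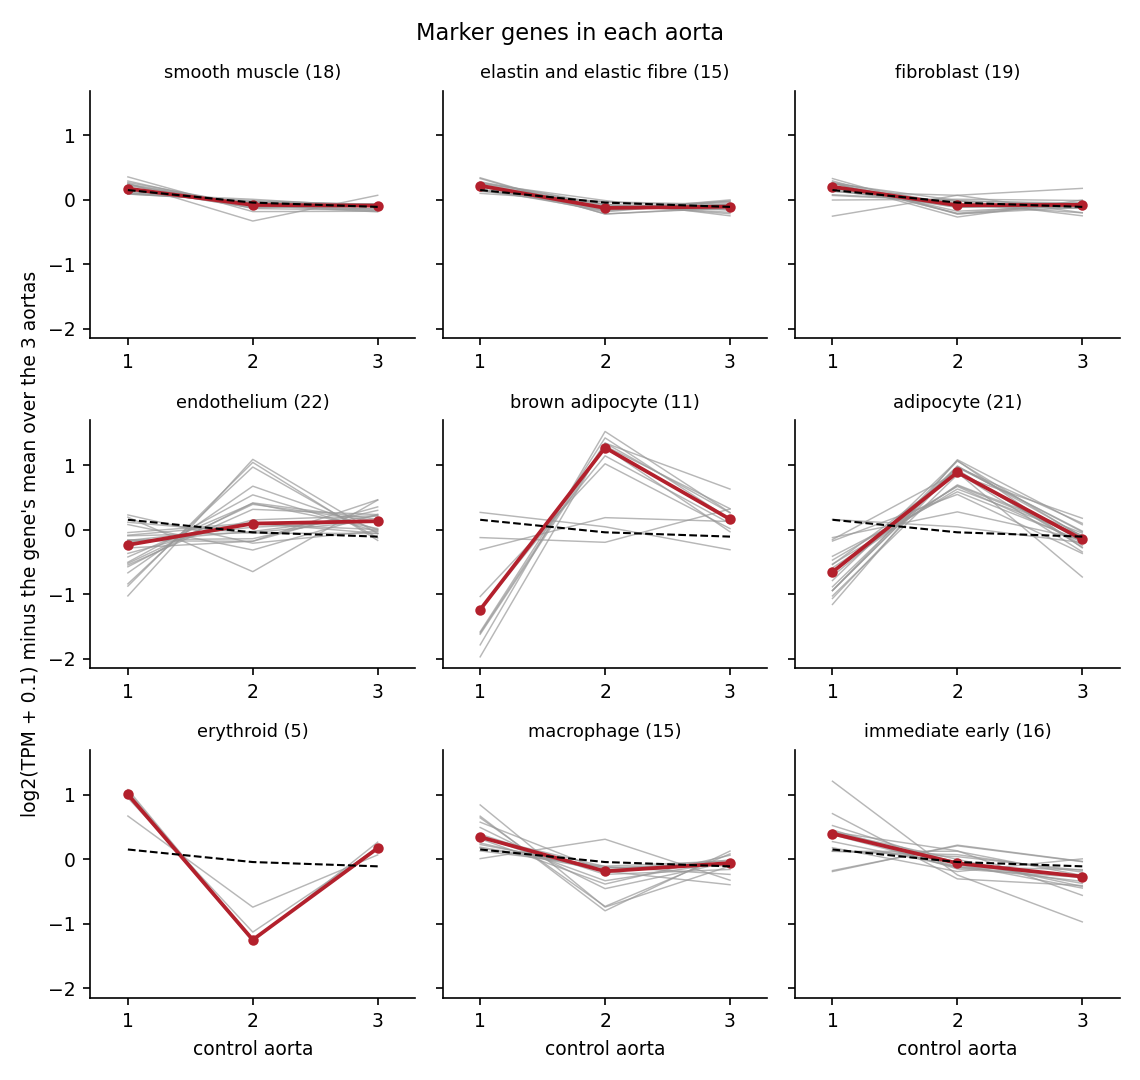
Log2(TPM + 0.1) of each marker minus its mean over the 3 control aortas (y axis), by aorta (x axis), for 9 marker lists with the number of genes in parentheses. Grey lines are genes, red points and lines the list median, and dashed lines the median of all genes. Smooth muscle, elastic fibre and fibroblast genes follow the dashed line, adipocyte genes peak in aorta 2, and erythroid genes are lowest there.

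Globins took a different order. *Hba-a2* had TPM of 1861, 369 and 988, *Hbb-bs* had 1615, 333 and 967, and *Alas2*, the enzyme of haem synthesis in red cells, had 17.5, 6.52 and 11.5. Aorta 1 was highest and aorta 2 lowest for all 5 erythroid markers with mean TPM of 1 or more, of which 4 are globins. Of all 13705 genes with that mean, 3621 had this order on TPM as deposited, as did 12 of 15 macrophage markers. Relative to the median gene the erythroid markers stood at 0.85, −1.21 and 0.28. The ratio of α- to β-globin was 1.52, 1.45 and 1.37. *Hba-a1* and *Hba-a2* are near-identical, so the split between them is uncertain. The platelet marker *Pf4* had TPM of 11.6, 4.82 and 6.35 and was also highest in aorta 1.

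Immediate early genes, which are switched on within minutes of stimulation, ran highest in aorta 1. *Fos* had TPM of 75.9, 27.6 and 16.7, *Atf3* had 106.0, 52.5 and 48.9, and *Jun* had 179, 125 and 115. After median-ratio rescaling 10 of 16 were highest in aorta 1, against 34.6% of all genes, while *Klf2*, a flow-responsive factor, was highest in aorta 2 (46.0, 60.1 and 50.6). The inducible heat shock genes *Hspa1a* (602, 324 and 369.8 TPM) and *Hspa1b* (722, 399.7 and 487) were also highest in aorta 1, and the constitutive *Hspa8* (836, 744 and 818) was nearly level.
Of the 136 genes with a wide spread, 32 (23.5%) were highest in aorta 1 and lowest in aorta 3, the order that 47.9% of all 7139 also had. Among them were genes of sterol synthesis and its control. *Insig1*, a regulator of sterol synthesis, had TPM of 39.4, 22.5 and 14.8, and *Sqle*, squalene epoxidase, had 14.98, 9.62 and 6.59. *Idi1* (18.7, 9.93 and 8.01) and *Msmo1* (26.9, 16.6 and 12.5) stood beside them. These 4 were picked out of the 32 genes of that order after their values were seen.

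*Prdm16* itself was expressed in all 3 control aortas, at 56.1, 47.6 and 40.3 TPM, the level of *Pecam1* or of *Erg*. After rescaling by the median ratio the values were 50.3, 48.7 and 43.6. The male-specific genes *Ddx3y* (42.0, 37.9 and 35.6 TPM) and *Eif2s3y* (42.7, 37.0 and 27.8) were expressed in each aorta and *Xist* was below 1 in each.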

How the data were processed

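Libraries were made with a poly(A) kit and sequenced as 151 bp read pairs. The authors deposited TPM for 55426 genes, 1 column per aorta, and their submitted processing notes name cutadapt 2.3, STAR 2.7.8a, RSEM 1.3.3 and GRCm38. TPM are not counts, so depth per library is unknown, no count test was used and no counting interval is given. The replicates are separate samples by label, and nothing says more about the animals.

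Genes were matched to GENCODE M21 (55240 of 55426) for class and position, and promoters came from RefSeq (GRCm38.p6). Transcripts were compared with the mitochondrial genome by BLAST 2.17.0. Shares, ranks and sums used TPM as deposited. Spread was the SD of log2(TPM + 0.1) for genes averaging 1 TPM or more. The scripts (Python 3.11.15, pandas 2.3.3, numpy 2.4.6, matplotlib 3.10.9) were tested on simulated data. Genes named come from the 25 nuclear protein-coding genes of highest mean TPM, the 5 highest of each marker list and class, and gene families. They also come from the 20 of largest and 15 of smallest SD and from markers at or near 0. Not every member of these sets is named, and others are named after their values were seen. The members, gene lists and classes were chosen with earlier results of these data known. The knockout columns, the PRDM16 peak lists and the authors' comparisons were not used here.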

Additional observations from a re-analysis of the deposited data

How the results depend on the processing

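No paired analysis was possible because a single group was described and no test was made. Shares depend on the total they are taken of. The top 100 genes held 58.9% of all TPM on average, 50.5% of the total without mitochondrially encoded genes and 26.9% of the nuclear protein-coding total. The contractile class moved from 5.81% to 7.17% and 11.3% on the same totals, the smooth muscle list from 3.12% to 3.84% and 6.04%, and the brown adipocyte list from 0.0407% to 0.0810% of the nuclear protein-coding total. Without *Acta2* the smooth muscle list held 1.96%. The share of mitochondrial genes has no value on totals that leave them out.

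The order of ribosomal protein and contractile genes by median SD reversed after median-ratio rescaling (0.10 and 0.0729). The median SD of 0.21 became 0.30 without a TPM filter and 0.15 after median-ratio rescaling. The 449 genes with an SD above 1 became 225 with a pseudocount of 1, 884 with a mean TPM of at least 0.5, 55 with at least 10, 2895 without a filter and 135 among nuclear protein-coding genes, the last chosen after the data were seen. With 1 aorta left out, the median SD ran from 0.12 (without aorta 1) to 0.21, the genes above 1 from 381 to 459, and the top 100 share from 57.5% to 60.7%. These SDs are over 2 aortas instead of 3, so they are not directly comparable with the 0.21 and 449 of all 3. The share of mitochondrial genes then ran from 17.4% to 21.2%, the contractile class from 5.51% to 5.99%, the smooth muscle list from 2.96% to 3.21%, and the brown adipocyte list from 0.0259% (without aorta 2) to 0.0539% (without aorta 1), which is a range of over 1.5 times. Genes detected at a TPM of at least 1 numbered 13521.5 to 13859.5.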
